A study of Zea mays with 64 samples.

Results

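New germinal Mu insertions in the chromosome interiors of W22 maize were examined, 289 sites among the 1091553 sites of the deposited count table. A site was taken when its start and end lay 8 bp apart, so that it spanned 9 bp, on chromosomes 1 to 10. It had to reach 1000 CPM (counts per 1000000 of the library total) in both the leaf and the endosperm of exactly 1 plant. It also had to hold under 10 counts in each of the 4 father libraries. Its start had to lie between 20% and 80% of the highest coordinate seen on its chromosome, a middle 60% called the interior here. The 289 members were 0.0658% of the 438927 interior 9-bp sites, and the same rule took 0.0728% of the 9-bp sites near the chromosome ends (475 sites). The members were thus chosen by their levels, father counts and position, and these values, the levels in either tissue and their difference included, are given as descriptions with no test. How many of a plant's insertions fell in the interior was not fixed by the rule.

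The study counted Mu insertion sites in genomic DNA of matched leaf and endosperm from 30 Mu-active plants. Mu-active W22 pollen had been placed on Mu-inactive W22 ears, and each kernel was chipped for endosperm before the chipped seed was grown for its first leaf. The plants fell into families NE71 (8 plants, father ND66-2), NE72 (7 plants, father ND67-51), NE73 (7 plants, father ND67-40) and NE74 (8 plants, father ND67-35). Each father was represented by 1 endosperm library, so no leaf or pollen of a father was sampled. All groups shared the W22 background and the Mu-active male parent, no group lacked active Mu, and each family had a single father. Leaf DNA came from a column kit and endosperm DNA from a modified CTAB extraction, so tissue and extraction cannot be told apart.

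Mu elements are DNA transposons of the maize Mutator system, mobilised by the transposase of the autonomous element MuDR. An insertion duplicates a short stretch of target DNA, which is why a true site has a fixed width. In maize, Mu is known to insert preferentially in and near genes, often towards their 5′ ends and in open chromatin, and genes are sparse around the centromeres. The embryo and the endosperm of a kernel are fertilised by separate sperm of 1 pollen grain, so an insertion present in both tissues at the level of inherited copies is taken as carried by both sperm. An insertion found in the leaf alone is taken as somatic.

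Leaf libraries held 25037 to 687094 counts (median 243312) and endosperm libraries 5457 to 105320 (median 37377.5). The father libraries held 273277 to 610687. At 1000 CPM a site had 5.46 to 105.3 counts in endosperm, and the lowest member counts were 12 in endosperm and 30 in leaf. Counts are PCR-amplified reads, so the exact (Clopper-Pearson) 95% intervals below cover counting error only.

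All 289 members stood in the authors' deposited list of insertions for the plant that carried them; the list held 0.0875% of the interior 9-bp sites (384). In leaf they ranged from 1018 to 14089 CPM with a median of 5426 CPM. In endosperm they ranged from 1022 to 13364 CPM with a median of 5054 CPM. Insertions inherited from the father had 1000 CPM or more in the father and in both tissues and were not listed for the Mu-inactive parent. They gave a scale for a hemizygous copy: the median member stood at 98.1% of its plant's inherited median in leaf and at 96.7% in endosperm. In leaf 262 of 289 members lay between 50% and 200% of that median, and in endosperm 267. In each tissue 5 members were under 25% of it. The minimum of 1000 CPM kept lower sites out of both classes, so these shares describe the selected sites only.

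On each chromosome, the insertion with the highest summed level was set out by tissue. These were picked by level among sites above the minimum in both tissues, so their match is only described. On chromosome 1, chr1:104690051-104690059 in NE71 plant 8 had 11989 CPM in leaf (1583 counts) and 11911 CPM in endosperm (65 counts, interval 9205 to 15157 CPM). On chromosome 2, chr2:122590110-122590118 in NE71 plant 1 had 10814 CPM in leaf and 10229 CPM in endosperm. On chromosome 9, chr9:120452807-120452815 in NE71 plant 2 had 9578 and 9485 CPM. In these 3 insertions the leaf level lay within the endosperm interval, as it did for those of chromosomes 5 and 8 below. The chromosome 7 insertion chr7:121070410-121070418 in NE71 plant 5 had the highest leaf level of all, 14089 CPM, against 9415 CPM in endosperm (interval 8438 to 10474). The chromosome 6 insertion chr6:100002925-100002933 in NE71 plant 1 ran the other way, with 10791 CPM in leaf and 13364 CPM in endosperm. Its endosperm level was the highest of any member.

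The other chromosomes' strongest insertions were of similar size. They were chr3:160579363-160579371 in NE71 plant 3 (12248 CPM in leaf, 8872 in endosperm) and chr4:184476448-184476456 in NE71 plant 2 (11224 and 8916). Chromosome 5 had chr5:158669017-158669025 in NE73 plant 1 (9765 and 8934), and chromosome 8 had chr8:109530897-109530905 in NE71 plant 4 (8052 and 7392). Chromosome 10 had chr10:119418624-119418632 in NE71 plant 5 (11245 and 7139). All but the chromosome 5 insertion were carried by family NE71. CPM is a share of a library, and NE71 plants also carried the fewest inherited insertions, 15.5 ± 3.96 (SD, n = 8), against 34.3 ± 3.86 for NE72 (n = 7), 27.9 ± 5.98 for NE73 (n = 7) and 39.9 ± 7.81 for NE74 (n = 8). The part of that load in the levels was not tested.

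The per-plant median member level in leaf, in log2(CPM + 1), averaged 13.06 ± 0.27 for NE71, 12.21 ± 0.11 for NE72, 12.99 ± 0.35 for NE73 and 12.54 ± 0.24 for NE74. In endosperm it was 12.78 ± 0.25, 12.02 ± 0.08, 12.79 ± 0.40 and 12.26 ± 0.42 in the same order. The levels of NE71 and NE73 overlapped within their SDs in both tissues, and NE72 had the lowest mean.

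At the rule's borders, the members closest to the 1000 CPM minimum were chr6:114050817-114050825 in NE72 plant 2 (1018 CPM in leaf) and chr5:92975993-92976001 in NE74 plant 4 (1022 CPM in endosperm). Just outside were chr8:66081648-66081656 in NE74 plant 3 (997 CPM in endosperm) and chr10:101045085-101045093 in NE72 plant 4 (954 CPM in leaf). By position, the outermost members were the chromosome 10 insertion at 119418624 (79.97% of the chromosome) and chr1:248280320-248280328 in NE72 plant 8 (79.88%). Just outside lay chr4:50687968-50687976 in NE72 plant 3 (19.9%) and chr9:130659550-130659558 in NE73 plant 4 (80.1%). A further 13 interior 9-bp sites reached the level in more than 1 plant, all 13 within 1 family each, and were not members. Another 5 sites met the rest of the rule with another width.

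**Figure D1:**
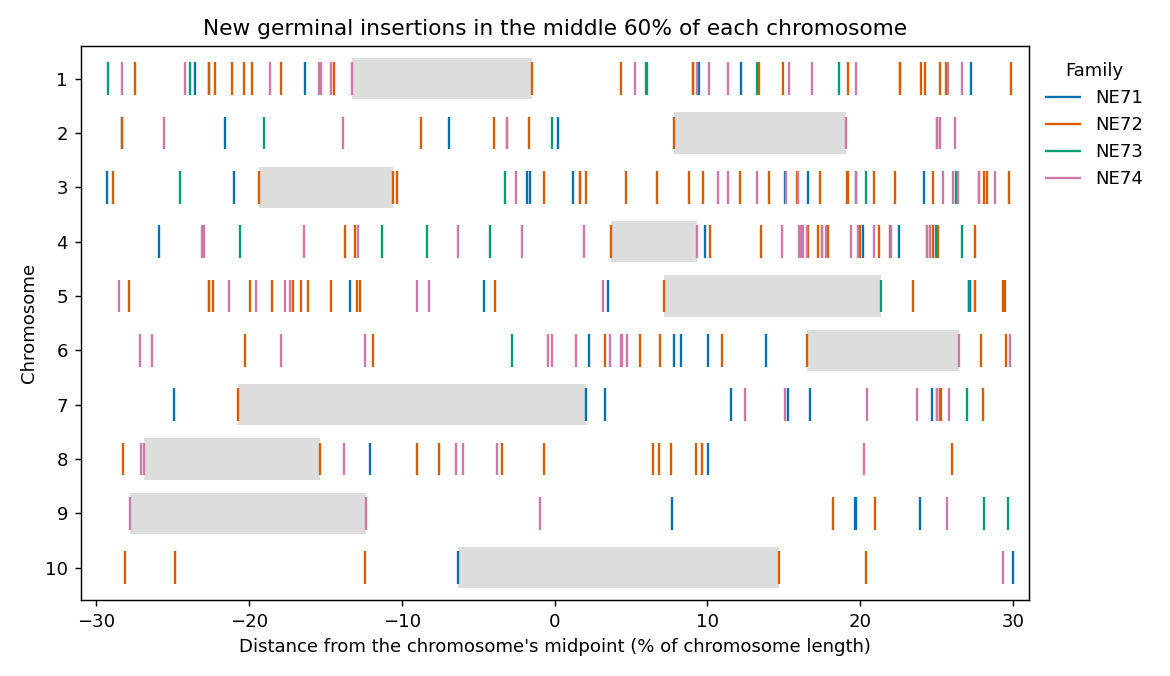
Each point is 1 of the 289 interior insertions, placed by its distance from the chromosome's midpoint as a percentage of chromosome length (horizontal axis) on its chromosome (vertical axis) and coloured by family. Chromosomes 1 and 3 hold 50 points each and chromosome 10 holds 8, and long runs of sequence without a point are seen on every chromosome.

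Chromosomes 1, 3 and 4 carried the most interior insertions and chromosomes 9 and 10 the fewest. Chromosome 1 had 50 in 23 plants, chromosome 3 had 50 in 19 plants and chromosome 4 had 48 in 22 plants. Chromosome 9 had 12 in 9 plants and chromosome 10 had 8 in 6 plants. Chromosome 5 had 33, chromosome 6 had 28, chromosome 8 had 21, chromosome 2 had 20 and chromosome 7 had 19. All 4 families contributed on every chromosome except 8 and 10, where family NE73 had 0.

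Per length, chromosome 3 stood first and chromosome 10 last. Chromosome 3 had 34.5 insertions per 100 Mb of interior, chromosome 4 had 31.5 and chromosome 6 had 27.2. Chromosome 2 had 13.6, chromosome 9 had 12.27 and chromosome 10 had 8.93, with the other 4 chromosomes between 17.5 and 26.8. The ratio of interior to end density was 0.877 on chromosome 3, from 50 interior and 38 end insertions, and 0.140 on chromosome 10, from 8 and 38. Read against all 9-bp sites of the same interior, the members were 0.0940% of them on chromosome 3, 0.0829% on chromosome 4 and 0.0304% on chromosome 10, with the others between 0.0491% and 0.0751%. Of new germinal insertions 56.8% lay in the interior on chromosome 3 and 17.4% on chromosome 10, where all 9-bp sites had 45.2% and 37.0%. These are counts pooled over plants, and differences between chromosomes were not tested.

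The comparison of interior with ends described where along a chromosome new germinal insertions lay. The interiors, 1272 Mb, held 22.7 new germinal insertions per 100 Mb and the ends, 848 Mb, held 56.0, a ratio of 0.406. All 9-bp sites of the table had a ratio of 0.449, with 344.9 sites per Mb of interior and 768.7 per Mb of the ends. Interior insertions made up 37.8% of all 764, and 40.2% of all 9-bp sites lay in the interior. Lower density in the interior was thus also seen for the sites of the whole table. Per plant the interior density was 0.757 ± 0.533 per 100 Mb (SD, n = 30) and the end density 1.87 ± 1.03, with the interior lower in 30 of 30 plants. The position of the border is part of the rule, so this difference is given without a test.

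**Figure D2:**
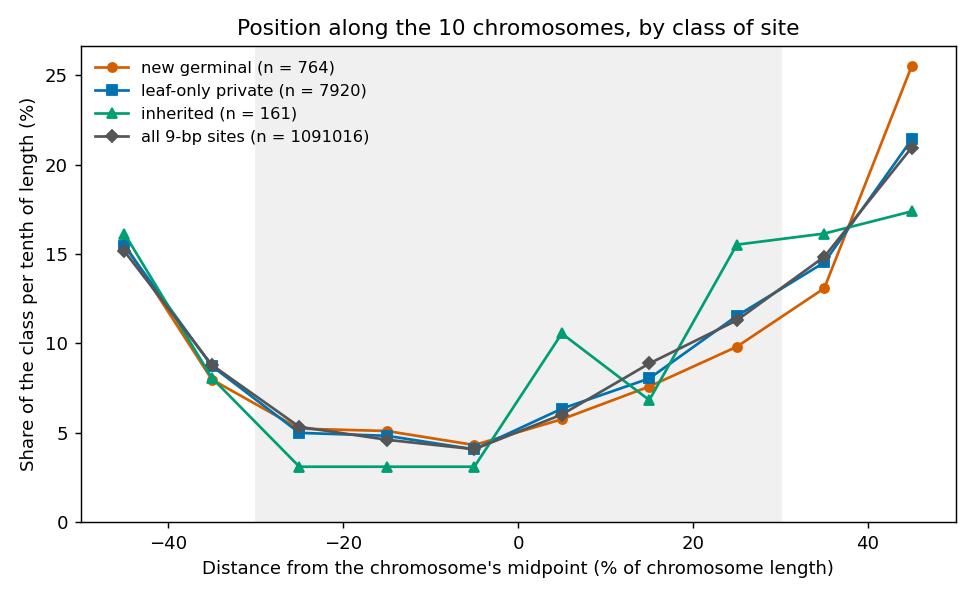
Share of each class of site (vertical axis, %) in each 10% of chromosome length, plotted by distance from the midpoint (horizontal axis, % of length) for new germinal, leaf-only, inherited and all 9-bp sites. New germinal insertions fall to 4.32% in the bin just before the midpoint and reach 25.5% in the last bin.

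Along the chromosomes, the new germinal insertions formed a trough with unequal sides. The bin from 40% to 50% of length held 33 of them, the lowest of all 10 bins, and the bin from 70% to 80% held 75. Within the interior 112 members lay before the midpoint and 177 (61.2%) after it. All interior 9-bp sites had 65.1% after the midpoint and the leaf-only interior sites also had 65.1%, so all 3 classes had more sites after the midpoint.

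**Figure D3:**
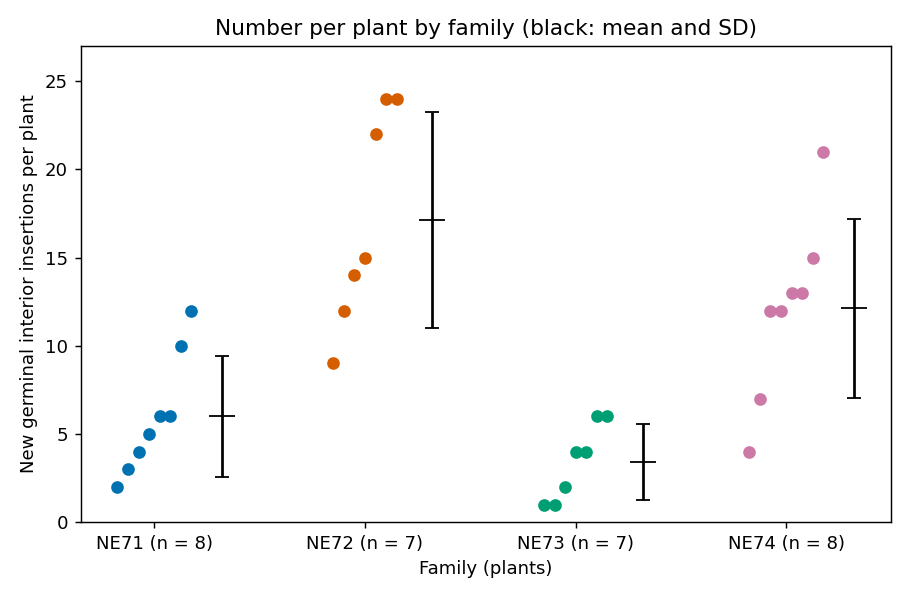
Number of new germinal interior insertions in each plant (vertical axis) by family (horizontal axis), 1 point a plant, with the family mean and SD in black; within a family, points are ordered by value. Plants of NE72 range from 9 to 24 and plants of NE73 from 1 to 6, without overlap.

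Families differed in the number of interior insertions per plant. NE72 plants carried 17.1 ± 6.12 (SD, n = 7, lowest 9, median 15, highest 24) and NE74 plants 12.1 ± 5.08 (n = 8, 4, 12.5 and 21). NE71 plants carried 6.00 ± 3.42 (n = 8, 2, 5.5 and 12) and NE73 plants 3.43 ± 2.15 (n = 7, 1, 4 and 6). The family labels accounted for more spread than permuted labels did (F = 13.8, permutation test, p = 1e-05, the smallest 100000 resamples can give, and 2e-05 adjusted over 8 tests). End insertions per plant had the same order, with 24.6 ± 8.92 in NE72, 20.4 ± 3.46 in NE74, 11.5 ± 4.84 in NE71 and 6.86 ± 3.24 in NE73. The order of the families was thus not particular to the interior.

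Of the 6 pairs of families, 4 differed in the interior number by an exact two-sided permutation test with Benjamini-Hochberg adjustment. The mean of NE71 minus that of NE72 was -11.1 insertions per plant (exact permutation, adjusted p = 0.00326), and NE72 minus NE73 was 13.7 (adjusted p = 0.00326). NE73 minus NE74 was -8.696 (exact permutation, adjusted p = 0.00373) and NE71 minus NE74 was -6.125 (adjusted p = 0.0217). By the same exact permutation test NE72 minus NE74, 5.02, did not pass (adjusted p = 0.119), nor did NE71 minus NE73, 2.57 (adjusted p = 0.119). Library depth also differed between families: median leaf totals were 377381 counts in NE72, 360587 in NE74, 174102 in NE71 and 138879 in NE73. Median endosperm totals had another order, with 14799 in NE72, 38058 in NE73, 42587.5 in NE71 and 52104 in NE74. The part of depth in the family difference was not tested. With a single father for each family, family and father cannot be told apart.

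The share of a plant's new germinal insertions that lay in the interior was compared next. It averaged 33.4 ± 8.54% for NE71, 41.3 ± 5.805% for NE72, 31.9 ± 7.86% for NE73 and 35.96 ± 9.39% for NE74. The families did not differ past the threshold (F = 1.86, permutation test, p = 0.161, adjusted p = 0.202). The absolute gap between interior and end density did differ between families (F = 7.47, permutation test, p = 0.00119, adjusted p = 0.00357), whereas the log2 ratio of the counts did not pass (F = 1.16, p = 0.342).

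The position of the members was next set beside other insertions of the same plants. Leaf-only insertions, taken as 9-bp sites with 10 or more counts in the leaf of 1 plant and 0 in the other 63 libraries, numbered 7920, of which 3156 lay in the interior (0.719% of interior 9-bp sites, against 0.731% of those near the ends). Their interior share per plant was 38.2 ± 6.12% (SD, n = 30), against 35.6 ± 8.44% for new germinal insertions. The difference of -2.58 ± 10.3 percentage points was within the spread between plants (sign-flip permutation test, p = 0.177, adjusted p = 0.202), and the germinal share was the higher one in 14 of 30 plants.

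Inherited insertions had an interior share of 45.9 ± 11.3% per plant. The new germinal share minus the inherited share was -10.3 ± 14.2 points and below 0 in 24 of 30 plants (sign-flip permutation test, p = 0.00064, adjusted p = 0.00102). Plants of a family share their father's sites, so this test treats as separate values that are not. Counted once per father, the germinal share minus the inherited share was -11.9 points (NE71), +12.5 (NE72), -19.7 (NE73) and -9.57 (NE74). Over the 4 fathers the exact sign-flip test gave p = 0.5, and 4 fathers cannot reach 0.05. The difference varied between families (F = 9.47, permutation test, p = 0.00019, adjusted p = 0.00114). This permutation also treats plants of a family as separate, so its p carries the same limit.

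**Figure D4:**
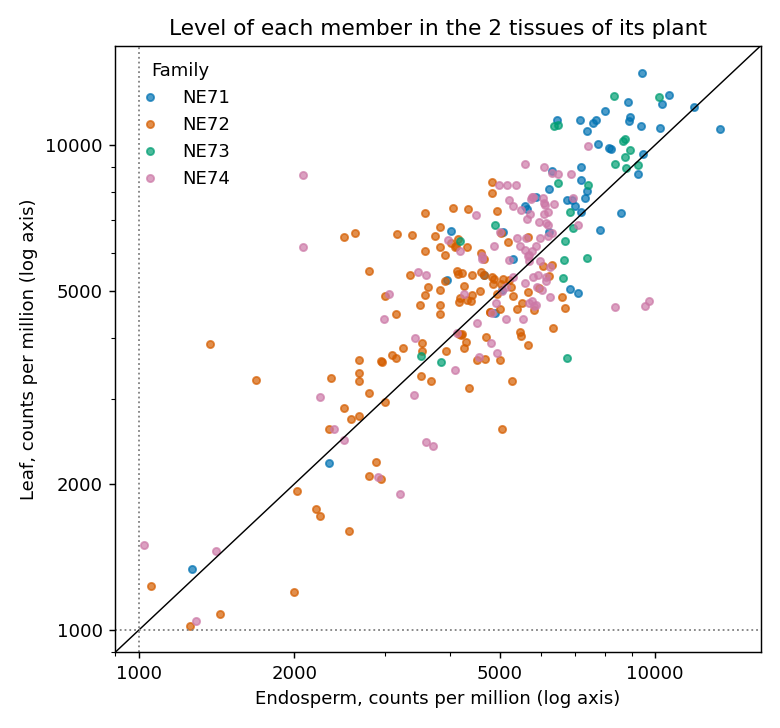
Level of each of the 289 insertions in the leaf (vertical axis, CPM, log scale) against the endosperm (horizontal axis, CPM, log scale) of its plant, coloured by family. Most points lie near the line of equal level, and 189 of 289 are higher in leaf.

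Members had slightly higher levels in leaf than in endosperm of the same kernel. The per-plant median level was 12.71 ± 0.43 in leaf and 12.47 ± 0.45 in endosperm, in log2(CPM + 1). The per-plant median of leaf minus endosperm was +0.23 ± 0.26 (SD, n = 30), 1.17-fold, and above 0 in 25 of 30 plants. Within families it was +0.26 ± 0.26 (NE71), +0.14 ± 0.14 (NE72), +0.21 ± 0.22 (NE73) and +0.30 ± 0.37 (NE74), so the family values overlapped within their SDs. The rule set a minimum on both levels, so no test of their difference is given.

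Other insertions had a leaf excess too. End insertions stood 0.12 ± 0.22 higher in leaf (20 of 30 plants) and inherited insertions 0.11 ± 0.15 (23 of 30 plants), on the log2 scale. The leaf excess of interior members minus that of end insertions was 0.11 ± 0.25 (above 0 in 22 of 30 plants), and minus that of inherited insertions 0.12 ± 0.23 (21 of 30 plants). Both differences were smaller than their SD between plants, and both comparisons were chosen after the values were seen. In overall level, interior and end insertions of a plant differed by -0.01 ± 0.26 (interior minus end, log2 scale, 16 of 30 plants above 0).

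Single insertions deviated further from equal levels than the medians did. In all, 280 of 289 members lay within 2-fold between the tissues. The largest leaf excess was at chr1:107568057-107568065 in NE74 plant 5, with 8666 CPM in leaf and 2081 CPM in endosperm from 15 counts (interval 1165 to 3430). In the same plant chr3:184227886-184227894 had 6160 CPM in leaf and 2081 CPM in endosperm, also from 15 counts. The third was chr5:176538376-176538384 in NE72 plant 5, with 3886 and 1376 CPM, the latter from 14 counts. All 3 endosperm intervals ended below the leaf level.

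The largest endosperm excess was also in NE74 plant 5, whose endosperm library had 7207 counts. There chr5:63843715-63843723 had 4645 CPM in leaf and 9574 CPM in endosperm from 69 counts (interval 7457 to 12101). In NE74 plant 2, chr4:111143386-111143394 had 4771 CPM in leaf and 9739 CPM in endosperm. In NE72 plant 2, chr5:78671251-78671259 had 2594 and 5058 CPM. One plant thus held both the strongest leaf excess and the strongest endosperm excess.

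Long stretches of the interior held no member. Between neighbouring members there were 279 gaps with a median of 2.14 Mb. Of these, 33 gaps were 10 Mb or longer and together covered 46.7% of the interior, and 84 were under 1 Mb. The longest gap of each chromosome ran from 14.4 Mb on chromosome 4 to 41.3 Mb on chromosome 7, and the 10 together covered 266.8 Mb, 20.96% of the interior.

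The longest stretch, chr7:53194931-94469659, took 37.9% of the interior of chromosome 7. It lay between chr7:53194922-53194930 in NE72 plant 5 (4483 CPM in leaf, 3146 in endosperm) and chr7:94469660-94469668 in NE71 plant 7 (9856 and 8139). On chromosome 1 the stretch chr1:114325103-150722078 (36.4 Mb) lay between insertions of NE74 plant 6 (7257 and 6209 CPM) and NE72 plant 2 (3262 and 3679 CPM). On chromosome 5 it was chr5:127110145-158669016 (31.6 Mb), between insertions of NE72 plant 9 (6147 and 4325 CPM) and NE73 plant 1, the strongest of that chromosome. On chromosome 10 it was chr10:65265210-96551664 (31.3 Mb), between insertions of NE71 plant 5 (11269 and 6464 CPM) and NE72 plant 9 (7230 and 3581 CPM).

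The other 6 were shorter. They were chr2:141148925-168709096 (27.6 Mb), chr9:36289224-61401899 (25.1 Mb) and chr8:42203042-63257516 (21.1 Mb), followed by chr3:74055841-95090771 (21.03 Mb), chr6:114050826-131162336 (17.1 Mb) and chr4:136496072-150871859 (14.4 Mb). On chromosome 2 the flanking insertions were in NE72 plant 1 (6156 CPM in leaf, 4100 in endosperm) and NE74 plant 3 (3652 and 4558). On chromosome 9 both flanks were in NE74 plant 6 (5400 and 5931 CPM, then 5786 and 5208). On chromosome 8 they were in NE74 plant 8 (6183 and 5890 CPM) and NE72 plant 1 (3689 and 3086). Chromosome 3 had flanks in NE72 plant 9 (6535 and 3379 CPM) and NE72 plant 2 (4920 and 4950). On chromosome 6 they were the lowest member in leaf, in NE72 plant 2 (1018 and 1258 CPM), and an insertion of NE74 plant 3 (4774 and 5774). On chromosome 4 they were in NE72 plant 1 (5490 and 2790 CPM) and NE74 plant 8 (1452 and 1413). Flanks were thus carried by plants of all 4 families.

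**Figure D5:**
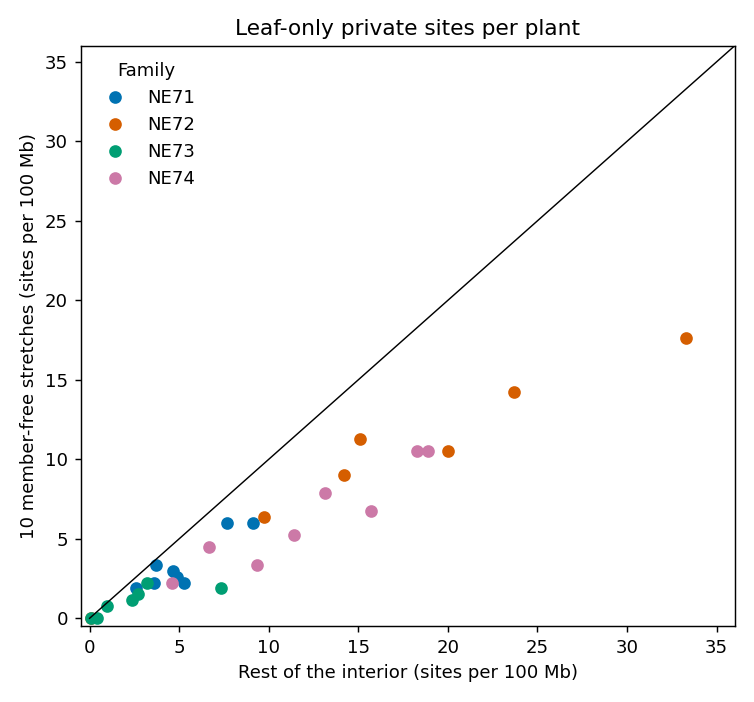
Leaf-only private sites per 100 Mb inside the 10 longest stretches without a new germinal insertion (vertical axis) against the rest of the interior (horizontal axis), 1 point a plant, coloured by family. All 30 plants lie below the line of equal density.

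Insertions that the rule had not used were also sparser in these stretches. Leaf-only insertions had a density per plant of 5.16 ± 4.51 per 100 Mb inside the 10 stretches and 9.09 ± 7.96 in the rest of the interior (SD, n = 30). The density was lower inside in 30 of 30 plants, with a difference of -3.93 ± 3.74 (sign-flip permutation test, p = 1e-05, adjusted p = 2e-05). All plants were scored on the same 10 stretches, so this p covers the spread between plants and not between stretches. At equal depth of both tissues the difference was -0.18 and did not pass (permutation p = 0.084). The difference varied between families (F = 6.22, permutation test, p = 0.00214, adjusted p = 0.00428).

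Other classes of site, pooled over plants, were sparser there too. Leaf-only insertions, all 9-bp sites and sites with 1 count in the whole series stood in the stretches at 0.568, 0.568 and 0.580 of their density in the rest of the interior. Of the 68 inherited interior sites 5 lay in the stretches, 1.87 per 100 Mb against 6.26 elsewhere. How many of the stretches' reads could be placed uniquely was not examined, as no genome of the files' build was used here.

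The 10 stretches were not alike. The leaf-only density was below that of the rest of the same interior in 7 of them and at or above it in 3. It was lowest, relative to the rest, on chromosome 8 (0.181), chromosome 3 (0.249) and chromosome 1 (0.316), followed by chromosome 7 (0.439) and chromosome 5 (0.550). On chromosomes 9 and 4 it was 0.691 and 0.795. On chromosomes 2, 6 and 10 it was 1.04, 1.02 and 1.201, so leaf-only insertions were not sparser in these 3 stretches. Each stretch was picked as the longest gap between members, so its lack of members was set by the choice. Every chromosome with members has a longest gap, and gap lengths were not tested against random spacing. All 9-bp sites fell on the same side of 1 on each chromosome, with ratios of 1.11, 1.201 and 1.28 on chromosomes 2, 6 and 10 and 0.220 to 0.701 on the others.

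A few members lay very close together. Of neighbouring pairs, 15 were under 100 kb apart, 7 under 10 kb and 4 under 1 kb. The closest pair was in 1 plant, NE74 plant 7: chr4:189075501-189075509 (7166 CPM in leaf, 4506 in endosperm) and, 16 bp on, chr4:189075517-189075525 (8274 and 5387). Both had a leaf level 1.54 to 1.59 times the endosperm level. Merging of sites within 10 bp could not join them, as they lay 16 bp apart. Whether these were separate insertions or signals of 1 event was not tested.

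The next pairs were in different plants. On chromosome 5, chr5:171483286-171483294 in NE73 plant 4 (3633 and 6759 CPM) and chr5:171483310-171483318 in NE71 plant 1 (4958 and 7081 CPM) lay 24 bp apart in different families. On chromosome 2, chr2:53016042-53016050 in NE72 plant 1 (5456 and 4227 CPM) and chr2:53016640-53016648 in NE71 plant 2 (5023 and 5051 CPM) lay 598 bp apart. On chromosome 1, chr1:85239775-85239783 in NE71 plant 7 (6613 and 6222 CPM) and chr1:85240613-85240621 in NE72 plant 4 (5171 and 5032 CPM) lay 838 bp apart. On chromosome 3, chr3:124617846-124617854 in NE72 plant 8 (5831 and 4667 CPM) and chr3:124618940-124618948 in NE72 plant 9 (1937 and 2027 CPM) lay 1094 bp apart. Of the 4 pairs under 1 kb, 3 thus joined plants of different families.

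Sites of other plants lay around most members. Around each member, the other 9-bp sites within 500 bp that were counted in other families and not in the carrier had a median of 16 (quartiles 8 and 25), and 23 of 289 members had none. End insertions had a median of 19 and interior leaf-only insertions a median of 11. None were found around 7.96% of members, 2.53% of end insertions (12 of 475) and 10.3% of interior leaf-only insertions (326 of 3156). The interior as a whole averaged 0.345 9-bp sites per kb of sequence, counting sites of every library. That is a mean over all sequence and not around sites, so it is no baseline for these medians. The same count around all interior 9-bp sites was not made. Leaf-only insertions had been required to have 0 counts in all other libraries and the members had not, so these medians are descriptions.

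Outside the plant that carried them, members were rare. No count was found in the 62 other libraries for 130 of 289, and all counts of members in other libraries came to 1962 of 587066 (0.334%). Counts in other libraries were found for 159 of 289 members and for 265 of 475 end insertions, so this was not particular to the interior. An average member had 1012 counts in each of its own libraries. It had 0.127 in a library of another plant of its family, 0.102 in a library of another family and 0.132 in a father library. These are raw counts, and the father libraries were deeper (median 499772 counts, against 243312 in leaf and 37377.5 in endosperm). The rule limited only the father counts closely, and 241 members had 0 counts in all 4 father libraries.

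The 3 members with the most counts elsewhere were chr10:56101214-56101222 in NE72 plant 3 (147 counts in 35 other libraries), chr6:89647700-89647708 in NE71 plant 6 (122 in 15) and the chromosome 5 site at 171483286 (111 in 31). The chromosome 6 insertion had 12680 CPM in leaf and 10653 CPM in endosperm of its own plant and reached 66 counts, 174.9 CPM, in the leaf of NE72 plant 1. The chromosome 10 insertion had 4609 and 6676 CPM in its own plant and at most 12 counts in any other library. All 3 had more counts summed over libraries of other families, which are more numerous, than over those of their own family.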

How the data were processed

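Mu insertion sites were measured by amplifying and sequencing DNA next to Mu ends, after shearing to a mean of 1000 bp, per the labels' protocols. The deposited count table gives raw counts per site and library for 64 libraries, and a deposited list gives the authors' 0 or 1 calls of insertions per plant. Bowtie2 is named per the submitters' processing notes, without role or version. The genome build and the counting rule are not given in the sources used here, so coordinates are those of the files and no gene, annotation or sequence is attached to a site.

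Counts were divided by each library's total to give CPM, and log2(CPM + 1) was used for levels. The total of a library is the sum over all sites. No columns were left unused (0). Site names with coordinates in scientific notation were read as numbers. Each plant was 1 replicate, and plants of a family are separate kernels. Leaf and endosperm came from the same kernel, per the series text, which pairs them. Median member levels of a plant, taken as deviations from family means, were compared between leaf and endosperm. They correlated across 30 plants (Pearson r = 0.611, Spearman rho = 0.651). Without the 2 plants farthest from the median, Pearson r was 0.575. Members were selected on both levels, so these are descriptions and not a test of the pairing.

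Differences were tested over plants by two-sided sign-flip permutation (100000 resamples, exact within families), families by permuting family labels, and pairs of families by exact permutation. Benjamini-Hochberg adjustment ran over 8 tests, of which the 3 on density and level are given as descriptions without their p, over the 6 tests of variation between families, or over the families or pairs compared. Intervals are exact Clopper-Pearson intervals. The labels name no batch. The insertions named are the strongest of each chromosome, the flanks of each longest stretch, the 5 closest pairs, those nearest the rule's borders, the 3 with the most counts in other plants and the 3 most unequal between tissues each way. Members, tests and lists were chosen with earlier results of these data known. The selection was tested on simulated data. Alternatives were other CPM and father minimums, borders, widths, merging, the authors' list, depth, pseudocount and omitted families or plants. Python 3.11.15, numpy 2.4.6, pandas 2.3.3, scipy 1.17.1 and matplotlib 3.10.9 were used.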

Additional observations from a re-analysis of the deposited data

Results flagged for a closer look

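In 28 sets of plants of a family, 6 values stood far from the other plants, where chance would set apart about 1 in 20 groups (1.4 of 28). In NE74 plant 5 the median leaf minus endosperm level of the interior insertions was 1.13 (log2), against -0.10 to 0.37 in the other plants of its family. The plant had 4 interior insertions and 7207 endosperm counts. Its interior minus end level was -0.322, against 0.02 to 0.26 in the others.

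The interior share of leaf-only insertions was 20% in NE72 plant 8, from 5 sites, against 37.2% to 45.2% in the others. The interior share of inherited insertions was 27.3% in NE73 plant 2, against 47.8% to 60.7%, and 66.7% in NE74 plant 2, against 40.4% to 51.9%. In NE73 plant 7 leaf-only insertions were sparser in the member-free stretches by -5.48 per 100 Mb, against -1.26 to -0.10 in the others. This plant had the deepest leaf library of its family, 338457 counts.

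The families differed in 3 contrasts by a permutation test of the difference itself. These were interior minus end density (F = 7.47), the interior share of germinal minus inherited insertions (F = 9.47) and the leaf-only density of the stretches minus the rest (F = 6.22). Siblings share inherited sites, so the test of germinal minus inherited share treats as separate values that are not. Plants of NE72 and NE74 also had more leaf-only insertions, 482.9 ± 299.1 (SD, n = 7) and 350.6 ± 151.1 (n = 8). NE71 had 150.4 ± 70.2 (n = 8) and NE73 had 76 ± 65.1 (n = 7). This class required a minimum of raw leaf counts. Median leaf totals had the same order: 377381 (NE72), 360587 (NE74), 174102 (NE71) and 138879 (NE73). Within NE72, plant 8 had 5 leaf-only sites from 25037 leaf counts, and plant 3 had 952 from 687094. The part of leaf depth in the number of leaf-only insertions was not tested. The part of that number in the 3 contrasts was not tested either, apart from the ratio form of the density (F = 1.16).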

How the results depend on the processing

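The rule took 296 sites at 500 CPM and 275 at 2000 CPM (289 and 274 of them among the 289 members), 174 with the interior narrowed to 30% to 70%, 169 without family NE72 and 192 without NE74. The lower interior density kept its direction in all 16 alternatives (-1.28 to -0.862 per 100 Mb), and the family difference in number passed in all 16 (F = 9.60 to 21.3). The leaf minus endosperm level, given without a test, stayed above 0 in all 19 (0.20 to 0.26). Without the replicate block that pairs leaf and endosperm it was 0.24. The germinal minus inherited share passed in all 16 (-15.8 to -7.70 points) with plants as the unit, but not with fathers.

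Results near the threshold moved. The interior share by family passed with the interior at 30% to 70% (F = 2.99, permutation p = 0.0494). The germinal minus leaf-only share passed without NE72 (-4.65 points, permutation p = 0.029) and with leaf-only sites from 5 counts (-4.00, p = 0.0349). The leaf-only depletion of the stretches kept its direction in all 19 and was -0.18 (permutation p = 0.084) at matched depth. The interior minus end level turned sign at 500 CPM (0.0013), with 0 father counts (0.0127), with borders of 25% and 75% (0.03), without NE71 (0.0046), without NE72 (0.0036), as a mean over members (0.0522) and, chosen after seeing the data, without plant 5 of NE74 (0.0012). At matched depth 46 of 47 named insertions kept their summed level, and that at 63257517 on chromosome 8 moved to 7736 CPM. Endosperm depth limits single levels: members held as few as 12 counts there.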

Other observations

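Distances to inherited sites varied between families. Within 1 Mb of an inherited site of their own father lay 5 of 48 members of NE71, 5 of 120 of NE72, 2 of 24 of NE73 and 4 of 97 of NE74. For NE72 members, 14 of 120 lay within 1 Mb of a site of the father of NE73 and 16 of 120 of that of NE74. These were the highest shares of any pairing, and for the father of NE71 it was 3 of 120. Over all families it was 16 of 289 (5.54%) for the own father. For other fathers it was 57 of 867 pairs of a member and a father (6.57%). Fathers differed in the number of such sites (26 to 64) and share some, and no difference was tested.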
